A study of Mus musculus with 6 samples.

Results

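The genes described here encode the proteins of the mitochondrial ribosome that carry an Mrpl or Mrps name. They were chosen by name alone, as the rows of the authors' deposited table whose symbol starts with Mrpl or Mrps followed by a number. The rule found 78 genes among 14472 rows, with 1 pseudogene-named row, Mrpl23-ps1, left out. No symbol stood on 2 rows, and all 78 genes had a p-value. By their established places, 51 belong to the large subunit and 26 to the small subunit, while Mrps36 is now placed outside the ribosome, in the 2-oxoglutarate dehydrogenase complex.

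The study profiled total RNA of mLPS1, a mouse cell line labelled as dedifferentiated liposarcoma cells, a tumour of the fat lineage that has lost fat-cell features. The 3 libraries of the WT group come from the mLPS1 wild type line, and the 3 libraries of the other group carry the genotype NICD Knockout in the same line. NICD is the intracellular domain of the Notch receptor, which enters the nucleus after cleavage and activates targets with its DNA-binding partner Rbpj. Notch over-expression is what the title of the series names, while the genotype label says knockout. Fold changes are given as NICD knockout over WT, a direction taken from the name of the authors' deposited table. The library titles carry p numbers, 35, 37 and 40 for WT and 34, 36 and 39 for NICD knockout, and no source used here says what they mean. The labels do not say whether the 6 libraries came from separate cultures or clones. The p-values therefore judge the group difference against the variation among these libraries, which may be technical variation alone.

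Mitochondria keep a small genome whose mRNAs encode core subunits of the respiratory chain and the ATP synthase, and a dedicated ribosome inside the organelle translates them. The ribosomal RNAs of this ribosome come from the mitochondrial genome, whereas its proteins are encoded in the nucleus, made in the cytosol and imported. Some of these proteins descend from bacterial ribosomal proteins and others were added in mitochondria, many of them at the central protuberance, the exit of the peptide tunnel and the mRNA entry.

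In the authors' deposited table, Notch1 was 3.43-fold lower in the NICD knockout (log2 fold change -1.78), and the Notch targets Heyl, Nrarp and Hes1 stood at -10.65, -6.31 and -2.79 on the log2 scale, all in the direction of the knockout label. The table holds values of the whole comparison, so values of single libraries and their depth were not used here. The means of all rows summed to 21033526 normalised counts. Of the 6 mesenchymal markers examined, 5 were tested and all 5 passed the threshold, with 2 higher and 3 lower. Of the 6 adipocyte markers, 3 were tested and 1 passed, the fatty acid carrier Fabp4, which rose by 6.13 on the log2 scale. The 3 adipocyte markers tested had low means, 9.42 to 156 normalised counts. Pparg, the main transcription factor of the fat lineage, stood at -1.72 with a 95% interval of -3.25 to -0.19 (adjusted p = 0.0542), and Cebpa at 0.40 (adjusted p = 0.501). Of the 3 epithelial markers none was tested. The 3 endothelial markers had means of 4.12 to 21.8 normalised counts. Of the 4 white blood cell markers 2 were tested. Ptprc had a mean of 8.73 normalised counts. The lysosomal protein Cd68, with a mean of 1208, stood at 3.64 on the log2 scale, past the threshold. The part of these markers in the results below was not tested.

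Mitochondrial ribosomal protein genes moved in both directions and by little. In the authors' deposited table, 33 of 78 passed an adjusted p of 0.05 in the DESeq2 Wald test (42.3%), where 50.5% of all 14470 genes tested did. Of these, 23 rose (29.5%, beside 25.4% of all genes) and 10 fell (12.8%, beside 25.1% of all genes). The median log2 fold change of the 78 genes was 0.12, and the middle of the distribution ran from -0.10 at the lower quartile to 0.39 at the upper quartile. The median of all genes tested was 0.02. Above 0 lay 49 genes and below 0 lay 29. In these bulk libraries, a change in the cells present and a change in RNA per cell cannot be told apart.

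The spread of the changes was small beside that of other genes, which is a description and was not tested. The standard deviation of the log2 fold changes over the 78 genes was 0.42 in the authors' deposited table, against 1.79 over all genes tested and 1.37 over 10479 genes at or above a floor of 100 mean normalised counts, which 77 of the 78 genes met. Mrpl23 was the exception, with a mean of 41.5. The median size of the change was 0.25 on the log2 scale, against 0.52 over all genes and 0.40 over genes above that floor. Among genes above that floor 54.6% passed the test, 24.4% higher and 30.2% lower, and their median was -0.05. A change of at least 1.5-fold past the threshold was found for 16 of the 78 genes, 11 higher and 5 lower, where the authors' deposited table gives 36.5% of all genes and 35.2% of genes above the floor. At least 2-fold was reached by Mrpl38 and Mrpl45, 2 of 78, where 23.2% of all genes reached it.

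**Figure D1:**
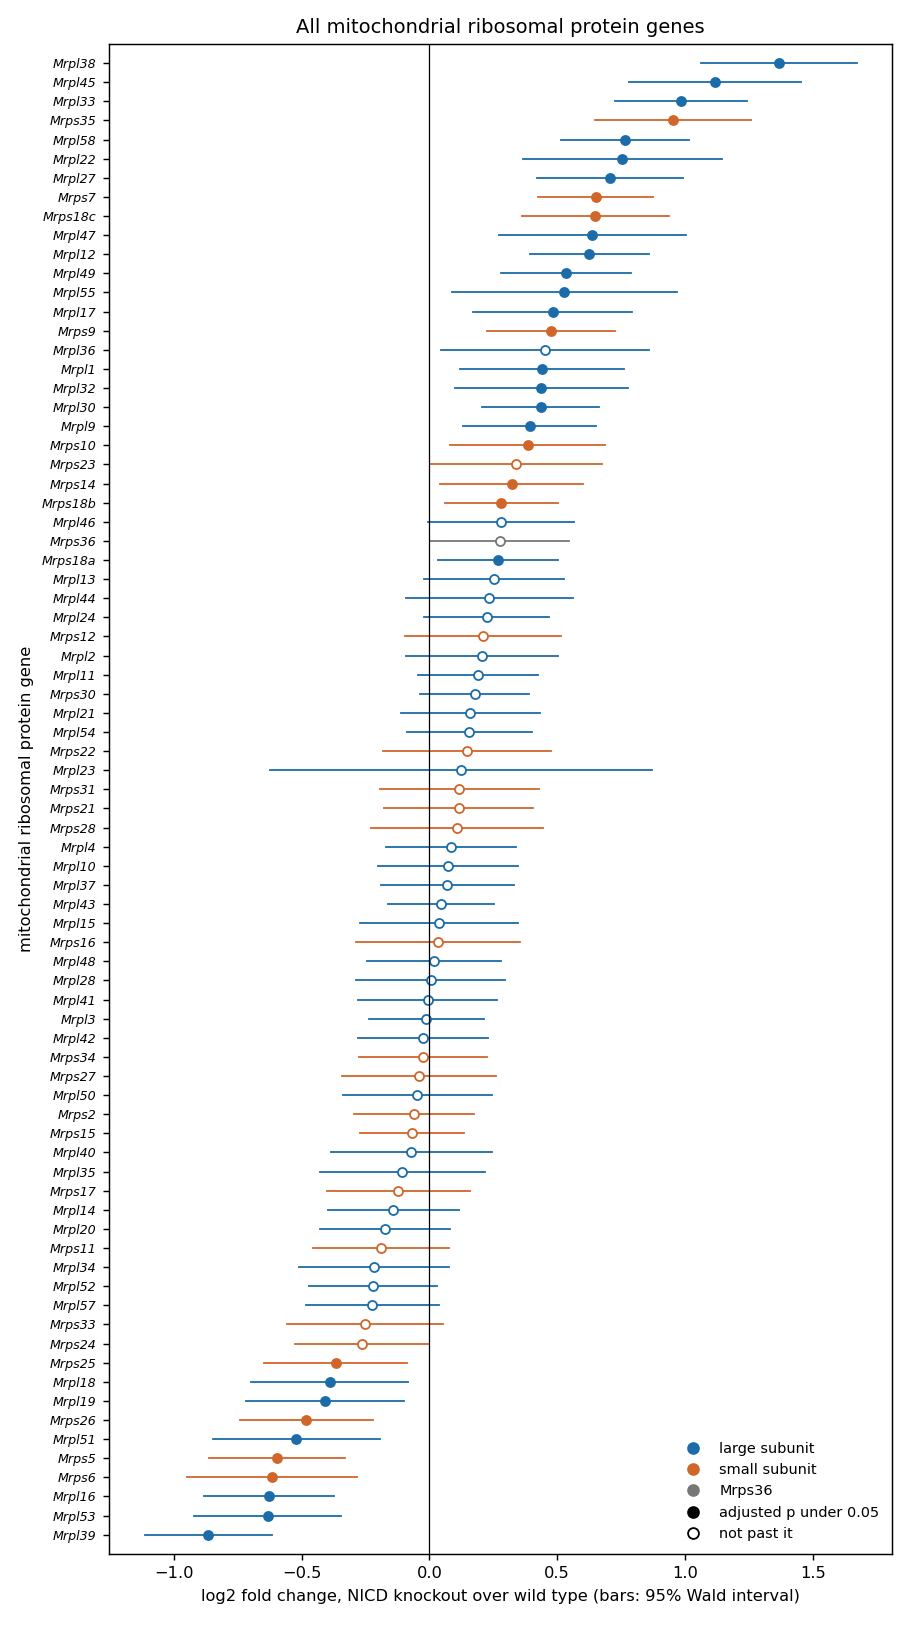
Log2 fold change (NICD knockout over WT, horizontal axis) of each of the 78 mitochondrial ribosomal protein genes with its 95% Wald interval, ordered by value and coloured by subunit. Filled points passed an adjusted p of 0.05. The 10 genes that fell lie between -0.87 and -0.37, the 23 that rose between 0.27 and 1.37, and the 45 others between -0.26 and 0.45.

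The largest rises were in large-subunit proteins. Mrpl38 (ENSMUSG00000020775), a protein of the central protuberance, had a mean level implied by the authors' deposited table of 1124 normalised counts in WT and 2902 in the NICD knockout. That is a 2.58-fold rise, with a log2 fold change of 1.37 (SE 0.16, adjusted p = 1.67e-17). Mrpl45 (ENSMUSG00000018882), which lies at the tunnel exit and helps to tether the ribosome to the inner membrane, went from 779 to 1689 normalised counts in the authors' deposited table, a 2.17-fold rise (1.12 on the log2 scale, SE 0.17, adjusted p = 7.07e-10). Mrpl33 (ENSMUSG00000106918), a small protein of bacterial origin, went from 700.4 to 1386 normalised counts, a 1.98-fold rise (0.98 on the log2 scale, SE 0.13, adjusted p = 6.40e-13). These genes and Mrps35 are the top 4 of the 78. In the authors' deposited table Mrps35, a mitochondria-specific protein of the small-subunit head, rose from 628 to 1216 normalised counts (0.95 on the log2 scale, SE 0.16, adjusted p = 7.08e-09).

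The largest fall was that of Mrpl39 (ENSMUSG00000022889), a tunnel-exit protein related to threonyl-tRNA synthetase. Its implied level in the authors' deposited table went from 1011 to 555 normalised counts, 1.82-fold lower (-0.87 on the log2 scale, SE 0.13, adjusted p = 7.51e-11). Mrpl53, which sits at the base of the L7/L12 stalk, fell from 489 to 316 normalised counts in the authors' deposited table (-0.63 on the log2 scale, SE 0.15, adjusted p = 6.69e-05). No other fall exceeded 0.63 on the log2 scale.

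Sequences around the transcription start are shown for the 2 largest rises and the 2 largest falls that had a promoter entry, to set the promoters of genes that moved in opposite directions side by side. A RefSeq promoter on build GRCm38.p6 was matched by symbol for 69 of the 78 genes, and Mrpl38 was not among them. Each sequence runs 5′ to 3′ on the gene's own strand, from 250 bases before the start site to 30 bases after it. Mrpl45 lies on the plus strand at chr11:97315466-97315745, Mrpl33 on the plus strand at chr5:31613701-31613980, Mrpl39 on the minus strand at chr16:84735215-84735494 and Mrpl53 on the plus strand at chr6:83108858-83109137. Capitals mark the letters of the NRF1 core GCGCATGCG or the ETS core CCGGAAG on either strand. NRF1 and the ETS factor GABP are activators of nuclear genes for mitochondrial proteins.
Mrpl45: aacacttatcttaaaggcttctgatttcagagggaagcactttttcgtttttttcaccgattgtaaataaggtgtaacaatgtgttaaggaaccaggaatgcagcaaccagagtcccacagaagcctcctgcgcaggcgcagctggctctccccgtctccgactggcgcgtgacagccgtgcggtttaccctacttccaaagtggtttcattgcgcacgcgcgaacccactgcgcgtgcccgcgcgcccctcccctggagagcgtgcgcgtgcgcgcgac
Mrpl33: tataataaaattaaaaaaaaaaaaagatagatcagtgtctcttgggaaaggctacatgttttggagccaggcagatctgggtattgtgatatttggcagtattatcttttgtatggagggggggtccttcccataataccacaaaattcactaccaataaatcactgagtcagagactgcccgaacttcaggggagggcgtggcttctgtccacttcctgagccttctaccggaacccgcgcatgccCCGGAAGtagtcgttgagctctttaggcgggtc
Mrpl39: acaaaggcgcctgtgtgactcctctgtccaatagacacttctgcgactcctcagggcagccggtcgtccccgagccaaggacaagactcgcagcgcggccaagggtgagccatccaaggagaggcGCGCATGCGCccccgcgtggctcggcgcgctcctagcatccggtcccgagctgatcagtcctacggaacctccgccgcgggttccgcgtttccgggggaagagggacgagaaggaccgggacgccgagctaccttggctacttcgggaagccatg
Mrpl53: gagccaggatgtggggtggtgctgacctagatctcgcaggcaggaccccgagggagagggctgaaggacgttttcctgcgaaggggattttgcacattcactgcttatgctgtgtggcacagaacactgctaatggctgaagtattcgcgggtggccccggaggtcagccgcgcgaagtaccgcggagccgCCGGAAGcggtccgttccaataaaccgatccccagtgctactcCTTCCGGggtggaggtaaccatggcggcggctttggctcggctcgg
The window of Mrpl45 held none of the 4 searched cores. Mrpl33 held the ETS letters at the start site, Mrpl53 held them on both strands, and Mrpl39 held the NRF1 letters on both strands, overlapping each other.

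The 4 cores were NRF1 (GCGCATGCG), ETS (CCGGAAG), YY1 (AAGATGGCG) and Rbpj (GTGGGAA), searched on both strands in windows of 300 bases, from 250 before to 50 after the start. The last letters of the ETS core, AAG, are the first of the YY1 core, so matches of these cores can overlap. The ETS letters were present in 26 of the 69 promoters (37.7%), against 8.86% of all 32851 windows and 22.1% of 8189 genes above the floor of 100 normalised counts. The NRF1 letters were present in 7 (10.1%), against 1.75% of all windows and 4.44% of those genes. The YY1 letters were present in 8 (11.6%), against 1.4% and 3.99%. The Rbpj letters were present in 6 (8.7%), against 6.38% of all windows and 7.09% of the genes above the floor. Those 6 were Mrpl3, Mrpl39, Mrpl58, Mrps11, Mrps22 and Mrps30, of which Mrpl58 rose, Mrpl39 fell and the other 4 did not pass the test.

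Split by call in the authors' deposited table, the ETS letters stood in 8 of 21 promoters of genes that rose, 4 of 9 of genes that fell and 14 of 39 of the others. The NRF1 letters stood in 5 of 21, 1 of 9 and 1 of 39, and the YY1 letters in 1 of 21, 0 of 9 and 7 of 39. A match is a description of letters and was not tested against the fold changes.

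Both subunits held genes that rose and genes that fell. Of 51 large-subunit genes, 16 rose (31.4%) and 6 fell (11.8%), with a median of 0.16 on the log2 scale in the authors' deposited table. Of 26 small-subunit genes, 7 rose (26.9%) and 4 fell (15.4%), with a median of 0.07. The 46 genes with a bacterial counterpart had 16 rises (34.8%) and 5 falls (10.9%) and a median of 0.14. The 31 mitochondria-specific genes had 7 rises (22.6%) and 5 falls (16.1%) and a median of 0.05. The shares of all genes tested were 25.4% higher and 25.1% lower. The differences between the groups were not tested. Mrps36 stood at 0.28 on the log2 scale (adjusted p = 0.0855) in the authors' deposited table.

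By place in the ribosome, the 7 genes listed at the small-subunit head had the highest median, 0.38 in the authors' deposited table. Among them, 5 rose (71.4%, beside 25.4% of all genes) and none fell in the DESeq2 test, also at an unadjusted p of 0.05. Each gene was listed at 1 place at most. Mrps24, at -0.26 (unadjusted p = 0.0469 in the DESeq2 test), was listed with the mRNA channel and not with the head. The 5 proteins without an Mrp name were given no place. The counts and the median of the head hold for this listing only, and would differ with Mrps24 or such proteins placed there. Mrps7, which nucleates the head by binding ribosomal RNA, rose from 1004 to 1576 normalised counts in the authors' deposited table (0.65 on the log2 scale, SE 0.11, adjusted p = 7.57e-08). Mrps9, a head protein of bacterial origin, rose by 0.48 on the log2 scale (adjusted p = 6.96e-04). At the peptide tunnel exit, 4 of 8 genes rose and 1 fell, and the median was 0.36 in the authors' deposited table. Mrpl22, which lines the tunnel, rose from 487 to 822 normalised counts (0.76 on the log2 scale, SE 0.20, adjusted p = 5.00e-04). Mrpl47, of bacterial L29 type, rose by 0.64 (SE 0.19, adjusted p = 0.00195), and Mrpl17 rose by 0.48 (adjusted p = 0.0062). Mrpl44, which has a ribonuclease III fold, did not pass the test, at 0.23 with a 95% interval of -0.09 to 0.56. Mrpl39 of the same region was the gene with the largest fall.

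The 9 genes of the central protuberance had 4 rises (44.4%), 1 fall (11.1%) and a median of 0.28 in the authors' deposited table. Of all genes tested, 25.4% rose and 25.1% fell. Mrpl58, which kept the peptidyl-tRNA hydrolase activity of a release factor, rose from 858 to 1457 normalised counts (0.77 on the log2 scale, SE 0.13, adjusted p = 1.70e-08). Mrpl27, which reaches toward the peptidyl transferase centre, rose from 477 to 778 in the authors' deposited table (0.71 on the log2 scale, SE 0.15, adjusted p = 6.55e-06). Mrpl55 rose by 0.53 (adjusted p = 0.0388), while Mrpl18, a relative of the bacterial protein that binds 5S RNA, fell by 0.39 on the log2 scale (adjusted p = 0.0266). Of the 6 stalk proteins, 2 rose (33.3%) and 1 fell (16.7%), near the shares of all genes for so short a list. Mrpl12, the stalk protein that recruits translation GTPases, rose from 2265 to 3495 normalised counts in the authors' deposited table (0.63 on the log2 scale, SE 0.12, adjusted p = 8.12e-07). Mrpl1, of the L1 stalk, rose by 0.44 (adjusted p = 0.0159).

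Around the decoding site and the mRNA channel, 1 of 3 genes fell (33.3%) and none rose in the DESeq2 test. Over all genes tested 25.1% fell and 25.4% rose, so counts among 3 genes do not set this site apart. At an unadjusted p of 0.05, 2 were lower and none higher. Mrps5, which lines the mRNA entry, fell from 1558 to 1031 normalised counts in the authors' deposited table (-0.60 on the log2 scale, SE 0.14, adjusted p = 4.68e-05). Mrps12, the decoding-site protein whose bacterial counterpart is altered in streptomycin resistance, stood at 0.21 with a 95% interval of -0.09 to 0.51. The 3 mammalian copies of the bacterial S18 protein, which occupy different sites, all rose in the authors' deposited table. Mrps18c rose by 0.65 (SE 0.15, adjusted p = 3.80e-05), Mrps18b by 0.28 (adjusted p = 0.0277) and Mrps18a by 0.27 (adjusted p = 0.0498), so the last lay just inside the threshold.

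The remaining falls were of like size. Mrpl16, which contacts tRNA in the large subunit, fell from 1046 to 677 normalised counts in the authors' deposited table (-0.63 on the log2 scale, SE 0.13, adjusted p = 6.89e-06). Mrps6 fell by 0.61 on the log2 scale (SE 0.17, adjusted p = 9.61e-04), and its exons share sequence on the same strand with Slc5a3, so reads of the pair are uncertain. Mrpl51 fell by 0.52 (SE 0.17, adjusted p = 0.00507) and Mrps26 by 0.48 (SE 0.13, adjusted p = 8.99e-04). Mrpl19 and Mrps25 fell by 0.41 (adjusted p = 0.0216) and 0.37 (adjusted p = 0.0224) in the authors' deposited table. Among the further rises, Mrpl49 rose by 0.53 (adjusted p = 1.44e-04) and Mrpl32, whose maturation by the m-AAA protease is needed for ribosome assembly, by 0.44 (adjusted p = 0.0237).

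The 45 genes that did not pass the test lay between -0.26 and 0.45 in the authors' deposited table, 26 above 0 and 19 below. The highest of them, Mrpl36, stood at 0.45 (adjusted p = 0.0569). Those with the smallest standard errors were Mrps15 at -0.07 with a 95% interval of -0.27 to 0.14, Mrpl43 at 0.05 (-0.16 to 0.25) and Mrps30 at 0.18 (-0.04 to 0.39). For 9 genes, Mrps15, Mrps2, Mrps34, Mrpl42, Mrpl3, Mrpl41, Mrpl28, Mrpl48 and Mrpl43, the whole 95% interval lay within 0.32 of 0 on the log2 scale. For the other 36, the interval reached beyond that. Mrpl23, the gene with the lowest mean, had a standard error of 0.38 around 0.12.

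The calls were unevenly placed along the genome, as a description that was not tested. For scale, 25.4% of all genes tested rose and 25.1% fell. For the other genes of each chromosome medians were taken, and their shares of calls were not counted. Of the 11 genes on chromosome 11, 8 rose (72.7%) in the authors' deposited table and none fell in the DESeq2 test (1 was lower at an unadjusted p of 0.05). Their median log2 fold change was 0.65, while the 867 other protein-coding genes of chromosome 11 above the floor of 100 normalised counts had a median of 0.20. On chromosome 6, 4 of 7 genes fell, Mrpl53, Mrpl51, Mrpl19 and Mrps25, and Mrps35 rose. The median of the 7 was -0.37, beside -0.52 for the 484 other genes of chromosome 6. On chromosome 16, Mrpl39 and Mrps6 fell and no gene of the 3 rose, also at an unadjusted p of 0.05. Their median was -0.61, beside -0.34 for the other genes there. Chromosome 5 had 3 of 4 genes higher, Mrpl33, Mrps18c and Mrpl1, and a median of 0.55 beside -0.05 for its other genes. Chromosome 1 had 3 of 5 higher and none lower, also at an unadjusted p of 0.05, and a median of 0.32 beside -0.10. Chromosome 2 had 2 of 4 lower and none higher, also at an unadjusted p of 0.05, and a median of -0.27 beside -0.14. Without the 11 genes of chromosome 11, 15 of 67 rose (22.4%), 10 fell (14.9%) and the median was 0.07.

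**Figure D2:**
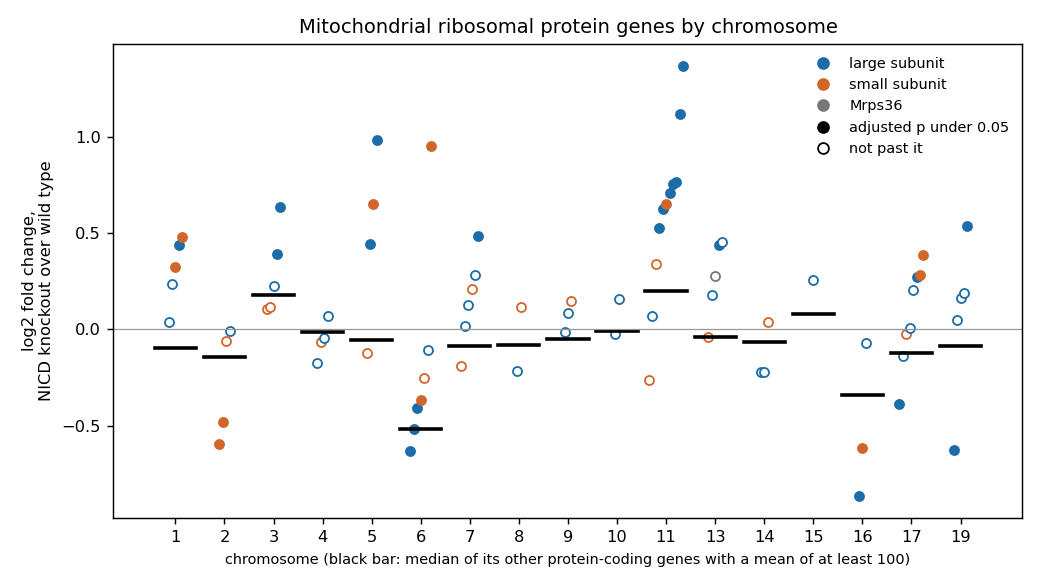
Log2 fold change of the mitochondrial ribosomal protein genes (points, filled where the adjusted p was under 0.05) on each of the 17 chromosomes that hold any, with the median of the chromosome's other protein-coding genes above the floor of 100 normalised counts (bars). The 11 genes of chromosome 11 run from -0.26 to 1.37 and the 7 of chromosome 6 from -0.63 to 0.95.

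Genes were also set beside their close neighbours. For each gene, the median log2 fold change of up to 10 expressed protein-coding neighbours on each side was taken, leaving out other mitochondrial ribosomal protein genes. Across the 78 genes, the gene's own fold change in the authors' deposited table and its neighbours' median correlated at Pearson r 0.65 and Spearman rho 0.58. Across 10219 other genes the values were 0.19 and 0.29. The fold changes had a standard deviation of 0.42 over the 78 genes and 1.36 over the others. Correlations depend on such spreads, so the gap in r and rho does not measure how closely genes followed their neighbours. Both axes come from the same 6 libraries and nearby genes share neighbours, so these are descriptions across genes, which are not independent replicates. Without chromosome 11, r was 0.62 and rho 0.50 over 67 genes. Of the 10 genes that fell, 9 had neighbours with a median below 0, and for 7 it was -0.3 or lower. Of the 23 that rose, 15 had neighbours above 0 and 8 below. Of the 45 that were not called, 18 had neighbours above 0 and 27 below, and for 9 the median was -0.3 or lower.

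With the neighbours' median subtracted, 22 of 77 genes passed the same threshold higher (28.6%) and 4 lower (5.19%), where 25.6% of 10296 genes passed higher and 25.5% lower. Of the 23 rises, 15 passed again in the same direction, and of the 10 falls, 2 did. Mrpl45 rose amid neighbours with a median of -0.04, Mrpl33 amid 0.09 and Mrpl27 amid 0.03, and all 3 kept their call. Mrpl38, at 1.37 beside neighbours at 0.52, also kept it. Mrps35 at 0.95, Mrpl58 at 0.77, Mrps7 at 0.65 and Mrpl12 at 0.63 had neighbours at 0.71, 0.59, 0.72 and 0.57, and all 4 lost it. Of the falls, Mrpl16 with neighbours at -0.27 and Mrps26 with neighbours at 0.17 kept their call. Mrpl39 and Mrpl53 lost theirs, at -0.87 and -0.63 beside neighbours at -0.70 and -0.62. Mrps6, whose neighbours stood at -1.09, was then higher than they were by 0.48. The standard deviation over the 78 genes went from 0.42 to 0.32 on subtraction, and that of other genes from 1.36 to 1.33. These drops start from unlike spreads and were not compared. The part of neighbouring genes in these values was not tested further.

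**Figure D3:**
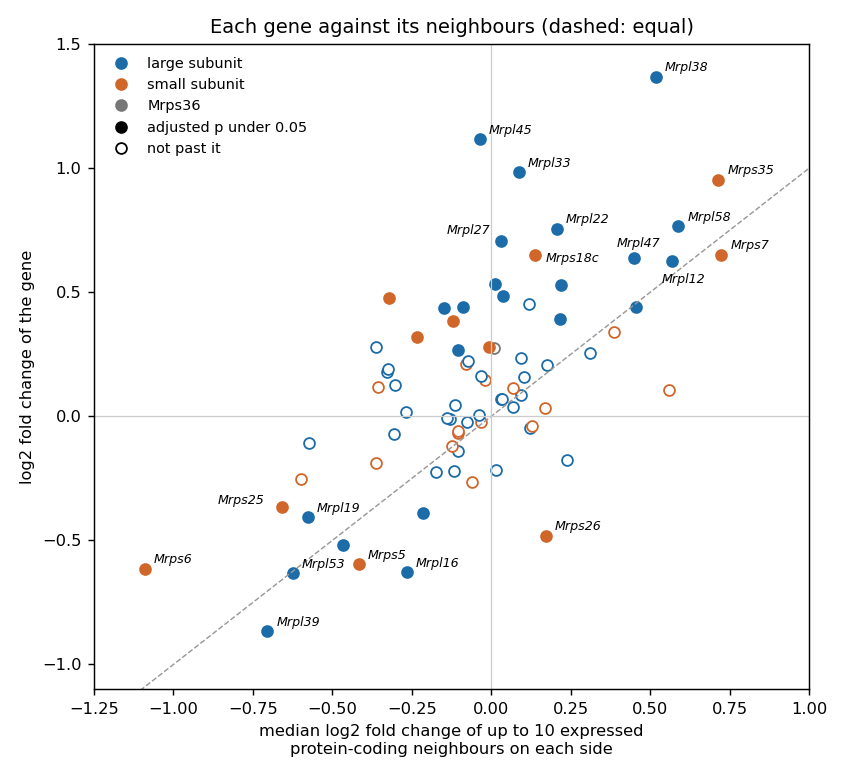
Log2 fold change of each mitochondrial ribosomal protein gene (vertical axis) against the median log2 fold change of its expressed neighbours (horizontal axis), with a dashed line where both are equal. Mrpl45, Mrpl33 and Mrpl27 stand high above neighbours near 0, while Mrps7, Mrpl12, Mrpl53 and Mrpl39 lie near the line.

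Many of these genes have a start site near that of a gene read in the opposite direction. In the GRCm38 annotation, 31 of the 78 had an opposite-strand partner with a start site within 1000 bases, and Mrpl46 and Mrps11 were partners of each other. Pairs that point away from each other were not told apart from pairs whose transcripts overlap. The partner's log2 fold change had the same sign in 23 of the 30 distinct pairs in the authors' deposited table. Both genes of the pair passed the test in 6 pairs, and 5 of these moved the same way. Neither share was counted for pairs of other genes, so they have no background here. Other genes also correlated with their neighbours (Spearman rho 0.29). Mrpl30 at 0.44 was paired with Mitd1 at 1.71, and Mrpl32 with the proteasome subunit gene Psma2 at 0.66. Mrpl47 was paired with Ndufb5, a subunit of respiratory complex I, at 0.42, and Mrps7 with Gga3 at 0.58. In both of these pairs the exons of the partners overlap on opposite strands. Mrpl51 and the condensin subunit gene Ncapd2 both fell, the latter by 0.85 on the log2 scale. Mrps18b rose while its partner Ppp1r10 fell by 0.48. These pairs were picked by call after the values were seen, and partners are also chromosomal neighbours. Exons of 4 genes (Mrpl53, Mrps24, Mrps34 and Mrps6) overlap another gene on the same strand and those of 18 overlap on the opposite strand. No source used here says whether the counting used strand, so the values of these genes are uncertain to that extent. Mrpl48, Mrpl23 and Mrps36 have a pseudogene-named copy in the annotation, and none of the 3 passed the test.

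The other genes of mitochondrial translation gave a mixed picture. The 5 mitochondrial ribosomal proteins without an Mrp name had a median of -0.23 in the authors' deposited table. Chchd1 rose by 0.29 (adjusted p = 0.0394), while Aurkaip1 stood at 0.20, the GTP-binding protein Dap3 at -0.25, Ptcd3 at -0.23 and Gadd45gip1 at -0.25, none past the threshold. Of 25 tested genes for ribosome assembly and ribosomal RNA modification, 10 rose (40%) and none fell in the DESeq2 test, also at an unadjusted p of 0.05. Their median was 0.32. Among all genes tested, 25.4% rose and 25.1% fell. The largest rises were those of Mettl17, an assembly factor of the small subunit, by 0.87 and of Mrm1, a ribosomal RNA methyltransferase, by 0.79. Of 13 translation factors, 2 rose (15.4%) and 1 fell (7.69%) around a median of 0.02 in the authors' deposited table. The initiation factor Mtif3 rose by 0.95 and the elongation factor Tsfm by 0.49, while Mtrfr, a rescue factor, fell by 0.72 on the log2 scale.

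Of 20 genes for mitochondrial aminoacyl-tRNA synthetases and the glutaminyl-tRNA amidotransferase, 5 rose (25%) and 4 fell (20%). Their median was 0.09 in the authors' deposited table. The phenylalanine enzyme Fars2 rose by 1.97 and the histidine enzyme Hars2 by 0.82, while Mars2 and Iars2, for methionine and isoleucine, fell by 0.55 and 0.54 on the log2 scale. Of 21 genes for transcription and RNA processing of the mitochondrial genome, 5 rose (23.8%) and 6 fell (28.6%), with a median of 0.15. Both lists lay near the shares of all genes tested, 25.4% higher and 25.1% lower. Prorp, a protein subunit of mitochondrial RNase P, rose by 1.66 and Mterf2 by 1.06. Slirp and Lrpprc, partners in one complex that stabilises mitochondrial mRNAs, fell by 0.84 and 0.58 on the log2 scale in the authors' deposited table. Slirp and Lrpprc had neighbours at -0.83 and -0.93, and Prorp had neighbours at 0.87. Of 6 genes for membrane insertion and translational activation, 2 rose (33.3%), Letmd1 by 0.52 and Coa3 by 0.45, and none fell in the DESeq2 test. At an unadjusted p of 0.05, 3 were higher and none lower.

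The 13 mRNAs of the mitochondrial genome, the templates this ribosome translates, had a median of -0.24 in the authors' deposited table. None rose, also at an unadjusted p of 0.05, and 1 fell (7.69%), mt-Nd1 by 0.51 on the log2 scale (adjusted p = 0.0258 in the DESeq2 test). Of 11 known regulators of nuclear genes for mitochondria, 5 fell (45.5%) and 1 rose (9.09%), beside 25.1% and 25.4% of all genes tested. Gabpa, the DNA-binding subunit of GABP, fell by 1.47 and Yy1 by 0.96 on the log2 scale in the authors' deposited table, beside neighbours at -0.72 and -1.12. Nrf1, named here after its value was seen, fell by 0.82 beside neighbours at -0.58. Ppargc1a, a coactivator of mitochondrial genes, rose by 6.68 on the log2 scale at a low level, with a mean over all libraries of 10.1 normalised counts.

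Most calls among the proteins of the cytosolic ribosome were falls. Of 89 genes taken by the names of its proteins, Rps4l at 9.08 among them, 7 rose (7.87%) and 43 fell (48.3%). These stand beside 25.4% and 25.1% of all genes tested. The median of the 89 was -0.26 on the log2 scale in the authors' deposited table. The mitochondrial ribosome had 23 rises, 10 falls and a median of 0.12. Rpl39 and Rpl36 had the largest falls, by 0.69 (adjusted p = 5.32e-07) and 0.63 (adjusted p = 3.05e-05) on the log2 scale. The difference between the 2 lists was not tested, and cytosolic ribosomal protein genes have many processed copies whose reads are uncertain.

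**Figure D4:**
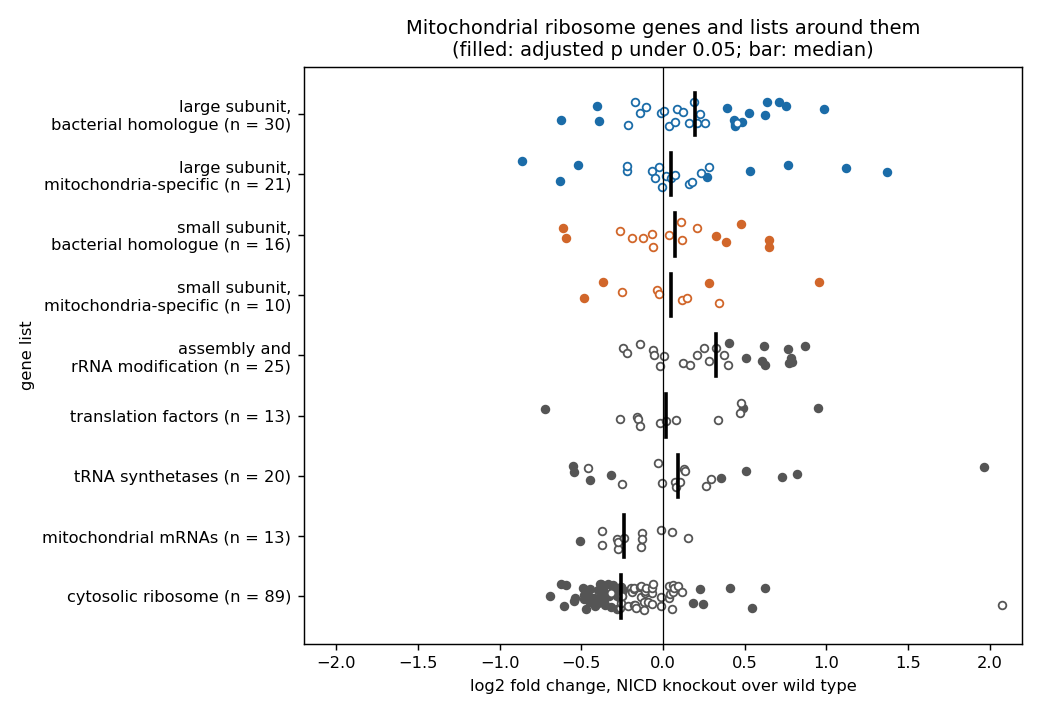
Log2 fold change (NICD knockout over WT, horizontal axis) of each gene (points, filled where the adjusted p was under 0.05) in the mitochondrial ribosomal protein genes split by subunit and origin and in 5 other lists, with the median of each list (bar). The medians run from -0.26 for the cytosolic ribosome to 0.32 for assembly and ribosomal RNA modification, and 1 gene, Rps4l at 9.08, lies beyond the axis limits.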

How the data were processed

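Total RNA of 6 libraries was sequenced, and groups were taken from the genotype label. Salmon, DESeq2 and the build mm39 are named in the submitters' processing notes, and the sources used here do not give settings, model or filters. The table deposited by the authors holds per gene, per the file headers, the mean of normalised counts, a signal that is never negative, the log2 fold change with its standard error, the Wald statistic (a score), and the p-value with its adjusted p-value. The Wald statistic and the adjusted p were recomputed from these columns and differed by at most 1.56e-13 and 1.28e-15. A test of counts with edgeR had been planned but edgeR was not run, since the table holds no counts of single libraries. From the deposited values were computed 95% Wald intervals, group levels implied by the mean and the fold change for groups of equal size, medians per list, and neighbour medians. Gene order came from GENCODE M21 (GRCm38), matched by gene identifier for 14456 of 14472 rows (99.9%), not from mm39, and no coordinate was converted. A gene was called at an adjusted p under 0.05. The calculations were tested on simulated data.

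The genes and lists were chosen with earlier results of these data known. Named were all genes of the family past the threshold with at least a 1.5-fold change, the 6 largest rises and falls among the rest, the 3 with the smallest standard error among those not past it, and 8 others by role; from each list at most the 2 largest rises and 2 largest falls. Ribosomal S6 kinase genes, which the name rule of the cytosolic list also takes, were removed after their names were seen. Other genes matching that rule were kept. Python 3.11.15, pandas 2.3.3, numpy 2.4.6 and scipy 1.17.1 were used.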

Additional observations from a re-analysis of the deposited data

How the results depend on the processing

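Of the 78 mitochondrial ribosomal protein genes, 23 rose and 10 fell. An adjusted p under 0.01 left 16 and 7. Bonferroni adjustment left 8 and 2, and a test against a change of 0.32 on the log2 scale left 8 and 1. Centring on the median of genes with a mean of at least 100 gave 27 and 8, and adding the 5 proteins without an Mrp name gave 24 and 10. Subtracting the median of 10 neighbours on each side gave 22 and 4, which includes genes not called before. Windows of 5 and 20 neighbours, chosen after the data were seen, gave 25 and 2, and 19 and 2. This subtraction ignores the error of the neighbours' median. With 10 neighbours subtracted, the sign turned for 22 of 77 genes, of which 15 were called neither before nor after. The other 7 were Mrpl19 (0.17), Mrps25 (0.29), Mrps6 (0.48), Mrpl35 (0.47), Mrps7 (-0.0732), Mrpl32 (-0.0166) and Mrps28 (-0.45), and the cause was not tested. Under centring, Mrpl18 at -0.34 and Mrps25 at -0.32 were no longer called. Centring also left 2 of 4 falls among the synthetases and 3 of 6 among the genes for mitochondrial transcription and RNA, and gave 4 rises in place of 2 among the translation factors. The rise of Ppargc1a did not meet the floor of 100 normalised counts. No paired analysis was possible because the deposited table holds no values of single libraries, and the p numbers in the library titles differ between the groups. For the same reason leaving out a library, edgeR and another normalization were not run, and depth is unknown.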
